A study of Homo sapiens with 12 samples.

Results

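Small nucleolar RNA (snoRNA) host genes are transcribed and spliced like other genes, but the useful part of many of them lies in the introns, from which snoRNAs are trimmed after splicing. The snoRNAs then guide the chemical modification of ribosomal and spliceosomal RNA: box C/D snoRNAs guide methylation of the ribose, box H/ACA snoRNAs guide conversion of uridine to pseudouridine, and the related scaRNAs act on spliceosomal RNA in Cajal bodies. The spliced exons that remain form a long noncoding RNA, and several of these host RNAs start with the terminal oligopyrimidine (TOP) tract found on the mRNAs of ribosomal proteins, reach ribosomes and are broken down by nonsense-mediated decay when they are translated. Plasma cells and myeloma cells, which secrete large amounts of immunoglobulin, depend on high ribosome output.

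The host long noncoding RNAs were taken by symbol as every row named SNHG followed by a number, together with GAS5, ZFAS1, DANCR and EPB41L4A-AS1. This gave 32 genes of the 59276 features in the table. They were measured by RNA-seq of total RNA from MM1S, an established human multiple myeloma cell line, in 12 libraries. The groups were day 0 cells and cells kept for 2, 3 or 5 days in NGI-1 at 10 μM, with 3 libraries per group. NGI-1 is an inhibitor of the oligosaccharyltransferase (OST) complex, the enzyme that attaches N-glycans to proteins in the endoplasmic reticulum. All groups were the same line with no genetic change named in the labels. The labels list NGI-1 as the treatment of the day 0 libraries as well, and these are called untreated here because the study describes them so. No library represents untreated cells of a later day, so time in culture and time in NGI-1 cannot be told apart, and all treated groups are set against 1 shared group of untreated libraries. Nothing in the labels says that the 3 libraries of a group came from separate cultures, so p-values measure the spread among these libraries only.

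Values are given as TPM, a length-corrected share of the RNA sequenced, recovered from the deposited log2 of TPM plus 1. Read counts cannot be recovered from such a share, so counting error is unknown and the spread among the 3 libraries of a group stands for precision. Of the 32 host genes, 28 reached 1 TPM or more in 3 or more libraries and were tested with limma among 11939 features. SNHG18, SNHG27, SNHG28 and SNHG31 did not pass, and their highest value in any library was 1.496 TPM, for SNHG27, while SNHG18 was listed at 0 throughout. A gene was called higher or lower at a Benjamini-Hochberg adjusted p under 0.05 over all features tested and a log2 fold change, on the log2(TPM + 1) scale, over 0.5 in size. The error given after a log2 fold change is its standard error (SE). Plasma cell markers were present in untreated cells, from 45.9 TPM for CD38 to 1547 TPM for XBP1, and 14 of 15 markers of T cells, B cells, myeloid, erythroid and stromal cells were at most 1.14 TPM in every library, the exception being CD3E at up to 7.22 TPM.

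The TPM values of a library add up to a fixed total, and some very abundant RNAs gained share in NGI-1, among them RPS27, which encodes a ribosomal protein, from a mean of 20578 TPM in untreated cells to 90338 TPM on day 5. The median log2 fold change over all tested features was -0.18 on day 2, -0.73 on day 3 and -0.99 on day 5 against untreated cells. A second scale is therefore given beside the deposited one. In this rescaled version each library was divided by 1 factor, chosen so that the 5433 features averaging 10 TPM or more had a median log2 ratio of 0 to their own mean, and the medians over all tested features became 0.013, -0.027 and -0.019. Both scales are relative, and fewer cells, less RNA per cell and a lower share of one transcript cannot be told apart in bulk RNA.

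Together the 32 host RNAs took up a growing share of the RNA. Their summed level was 5151 ± 172 (SD, n = 3) TPM in untreated cells, 6312 ± 293 (SD, n = 3) on day 2, 8047 ± 141 (SD, n = 3) on day 3 and 9513 ± 707 (SD, n = 3) on day 5, and no library of one group overlapped with those of the next. This corresponded to 0.515% of all TPM in untreated cells and 0.951% on day 5. After rescaling the means were 3437, 4954, 9817 and 14951. The sum was carried by few genes. GAS5 alone held 22.9% ± 0.628 (SD, n = 3) of it in untreated cells and 37.1% ± 1.796 (SD, n = 3) on day 5, and GAS5, SNHG29, SNHG5 and ZFAS1 together held 68.1% and 79.4%. Without GAS5 the sum was still 3971 ± 139 TPM (SD, n = 3) in untreated cells and 5975 ± 284 TPM (SD, n = 3) on day 5.

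**Figure D1:**
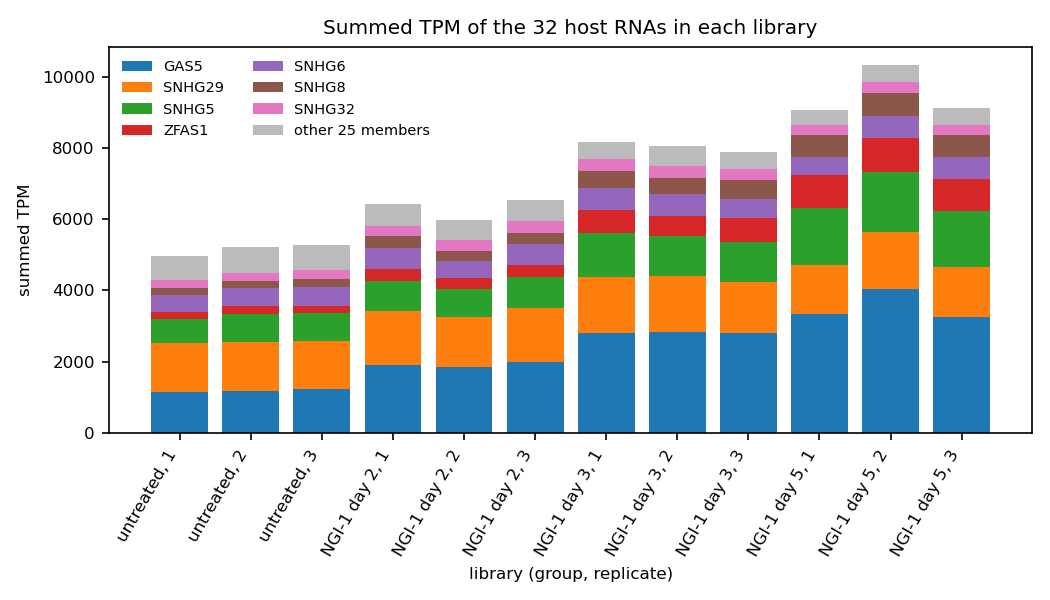
Summed TPM of the 32 host RNAs in each of the 12 libraries, split into the 7 most abundant members and the other 25. The bars grow from 4955 to 5273 TPM in the untreated libraries to between 9083 and 10328 TPM on day 5, and the GAS5, SNHG5, ZFAS1 and SNHG8 segments widen while SNHG29 and SNHG6 stay near the same height.

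The single host genes went in both directions. On the deposited scale 6 of the 28 tested members were called higher on day 2 and 5 lower, against 8.04% higher and 23.2% lower among all features. On day 3 the counts were 7 higher and 9 lower, beside 7.59% and 61.5% of all features. On day 5 they were 6 higher and 14 lower, beside 7.73% and 69.8%. The share of members called higher was thus 21.4%, 25% and 21.4%, and the share called lower was 17.9%, 32.1% and 50%. The median log2 fold change of the members was -0.11, -0.32 and -0.51 on the 3 days, and 21 of the 28 lay above the median of all features on day 5.

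All members called higher on the deposited scale were also called higher after rescaling, and most calls of a fall were lost. On the rescaled values 7 members were called higher and 2 lower on day 2, beside 12.9% and 11.4% of all features. On day 3 there were 11 higher, beside 23.9%, and 0 lower by limma, beside 24.2% of all features, while 2 members were lower at an unadjusted p under 0.05. On day 5 there were 15 higher, beside 27.5%, and again 0 lower by limma, beside 26.9%, with 2 members lower at an unadjusted p under 0.05. On days 3 and 5 these were SNHG16 and SNHG17. They also passed the adjusted p (limma, 0.019 and 0.0033 on day 3, 0.045 and 0.0023 on day 5). Their sizes stayed under the fold threshold, at -0.25 and -0.45 on day 3 and -0.20 and -0.47 on day 5. The rescaled medians of the members were 0.11, 0.44 and 0.62. Of the 14 members lower on day 5, 13 were not called after rescaling and SNHG1 was called higher. The day 5 falls given below were thus called on the share of RNA only, and a lost call does not mean that no fall remained. On day 2 SNHG1 and SNHG26 stayed called lower after rescaling.

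**Figure D2:**
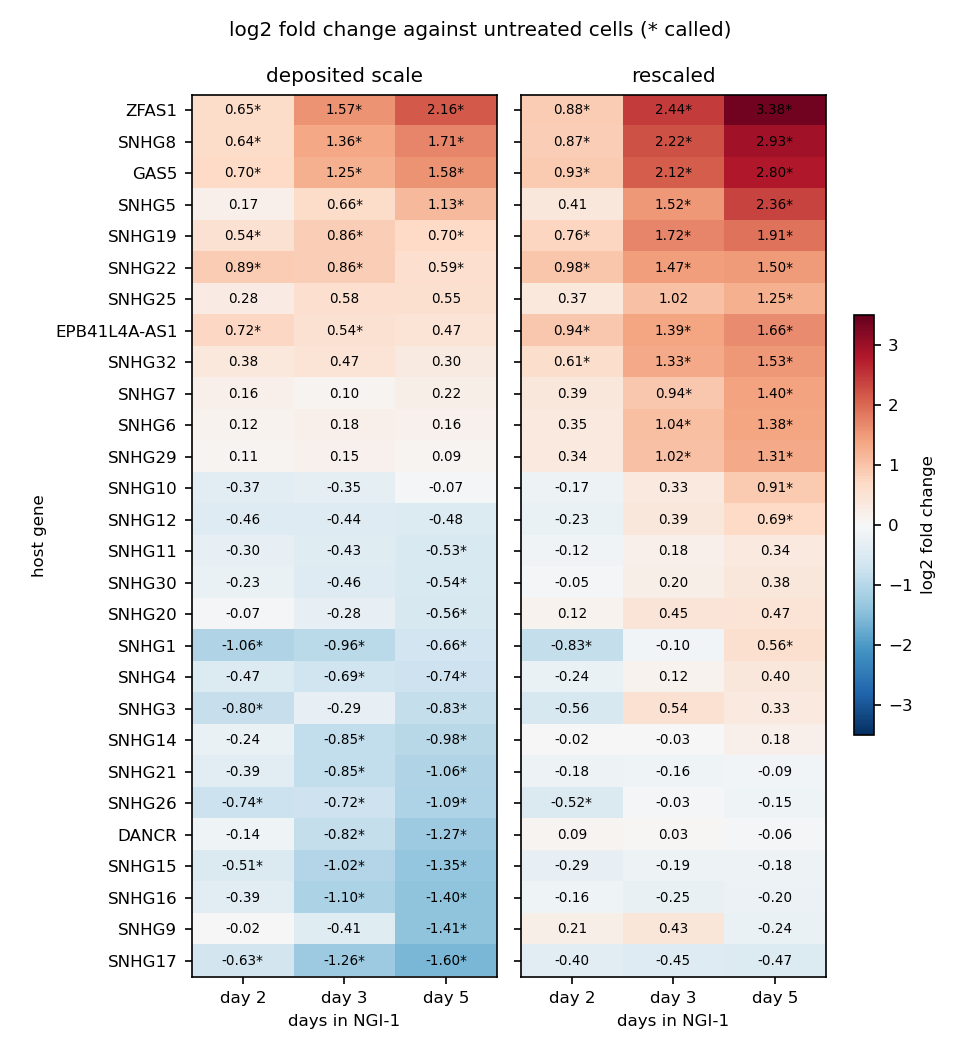
Log2 fold change of the 28 tested host genes against untreated cells after 2, 3 and 5 days in NGI-1, on the deposited scale (left) and after rescaling (right); an asterisk marks a call at adjusted p under 0.05 and a size over 0.5. ZFAS1, SNHG8, GAS5 and SNHG5 have the largest rises on day 5 on both scales, and the blue block of falls at the bottom left is nearly white on the right.

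ZFAS1, an RNA transcribed head to head with ZNFX1, changed most. Its level was 199, 212 and 216 TPM in the untreated libraries, 339, 306 and 338 TPM on day 2, 639, 563 and 676 TPM on day 3 and 942, 963 and 898 TPM on day 5. Each day lay above the one before without overlap, and the day 5 mean was 4.47 times the untreated mean. The log2 fold change was 0.65 ± 0.078 on day 2, 1.57 ± 0.078 on day 3 and 2.16 ± 0.078 on day 5 (limma, adjusted p = 2.06e-11 on day 5). After rescaling the day 5 value was 3.38 ± 0.13.

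SNHG8, host of the H/ACA snoRNA SNORA24, followed with a similar course. It was measured at 176, 193 and 209 TPM in the untreated libraries, 319.7, 278 and 304 TPM on day 2, 485, 468 and 535 TPM on day 3 and 626, 637 and 632 TPM on day 5. The groups were again separate and in the order of the days. The log2 fold change reached 1.71 ± 0.081 on day 5 (limma, adjusted p = 2.99e-10) and 2.93 ± 0.12 after rescaling.

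GAS5, named for its accumulation in growth-arrested cells and known to bind the glucocorticoid receptor, was the second most abundant member in untreated cells and the most abundant in every treated group. Its TPM values were 1144, 1161 and 1236 TPM in the untreated libraries, 1911, 1843 and 1983 TPM on day 2, 2812, 2829 and 2789 TPM on day 3 and 3336, 4034 and 3243 TPM on day 5. All treated libraries lay above all untreated ones, and the day 5 libraries, although the most variable, lay above those of day 3. The log2 fold change rose from 0.70 ± 0.075 on day 2 through 1.25 ± 0.075 on day 3 to 1.58 ± 0.075 on day 5 (limma, adjusted p = 3.28e-10 on day 5), and the rescaled day 5 value was 2.803 ± 0.12.

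SNHG5, host of the box C/D snoRNAs SNORD50A and SNORD50B, rose later. Its level was 661, 787 and 766 TPM in the untreated libraries, 845, 775 and 874 TPM on day 2, 1227, 1128 and 1128 TPM on day 3 and 1608, 1676 and 1554 TPM on day 5. The day 2 libraries overlapped with the untreated ones, and those of day 3 and day 5 did not. The log2 fold change was 0.17 ± 0.076 on day 2 and did not pass the test (limma, adjusted p = 0.078), was 0.66 ± 0.076 on day 3 and reached 1.13 ± 0.076 on day 5 (limma, adjusted p = 9.01e-09). After rescaling it was 2.36 ± 0.12 on day 5.

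SNHG19 and SNHG22 were already higher on day 2. SNHG19, a short gene that carries SNORD60, was at 48.3, 52.6 and 49.3 TPM in the untreated libraries, 77.3, 72.7 and 69.03 TPM on day 2, 88.2, 97.7 and 89.9 TPM on day 3 and 80.5, 93.3 and 73.6 TPM on day 5. Its log2 fold change was 0.54 ± 0.095, 0.86 ± 0.095 and 0.70 ± 0.095 on the 3 days, with no call between day 3 and day 5 (limma, adjusted p = 0.21). SNHG22, host of SCARNA17, is a low RNA of 2.34 ± 0.926 (SD, n = 3) TPM in untreated cells and 5.07 ± 0.325 (SD, n = 3) on day 2, and its log2 fold change was 0.89 ± 0.17 on day 2 and 0.59 ± 0.17 on day 5 (limma, adjusted p = 0.0045 on day 5). Rescaled, the day 5 values were 1.91 ± 0.12 for SNHG19 and 1.496 ± 0.15 for SNHG22. EPB41L4A-AS1, which hosts SNORA13, was called higher on days 2 and 3 but fell short of the fold threshold on day 5. It was measured at 33.9, 32.03 and 35.1 TPM in the untreated libraries, 64.02, 55.4 and 50.2 TPM on day 2, 49.1, 50.003 and 49.4 TPM on day 3 and 42.7, 56.2 and 42.9 TPM on day 5. Every treated library lay above every untreated one, and the log2 fold change went from 0.72 ± 0.12 on day 2 to 0.54 ± 0.12 on day 3 and 0.47 ± 0.12 on day 5 (limma, adjusted p = 0.0019 on day 5), while the rescaled day 5 value of 1.66 ± 0.14 was called.

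Some abundant host RNAs were not called on any day on the deposited scale. SNHG29, the most abundant member in untreated cells and the host of SNORD49A, SNORD49B and SNORD65, stood at 1389, 1397 and 1349 TPM in the untreated libraries, 1513, 1419 and 1523 TPM on day 2, 1577, 1582 and 1446 TPM on day 3 and 1367, 1609 and 1428 TPM on day 5. The day 5 and untreated libraries overlapped, with a log2 fold change of 0.087 ± 0.068 (limma, adjusted p = 0.24). SNHG6, the host of SNORD87, was at 491, 519 and 539.5 TPM in the untreated libraries, 597, 487 and 600.2 TPM on day 2, 617, 596 and 540.3 TPM on day 3 and 492, 631 and 616 TPM on day 5. It did not pass the test either, at 0.16 ± 0.10 on day 5 (limma, adjusted p = 0.17). For SNHG32, which hosts SNORD48 and SNORD52, the values were 229, 233 and 246 TPM in the untreated libraries, 296, 304 and 322 TPM on day 2, 339.7, 337 and 304 TPM on day 3 and 286, 304 and 286 TPM on day 5. The treated libraries were all above the untreated ones but the change stayed under the fold threshold, with 0.30 ± 0.069 on day 5 (limma, adjusted p = 0.001). SNHG7, host of SNORA17A and SNORA17B, had 22.3, 26.4 and 36.2 TPM in the untreated libraries, 30.7, 31.2 and 31.9 TPM on day 2, 34.9, 29.9 and 25.5 TPM on day 3 and 31.7, 35.3 and 30.5 TPM on day 5. Its untreated libraries spanned the values of all later groups, and the log2 fold change on day 5 was 0.22 ± 0.15 (limma, adjusted p = 0.2). After rescaling all of these were called higher on day 5, with 1.31 for SNHG29, 1.38 for SNHG6, 1.53 for SNHG32 and 1.403 for SNHG7.

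**Figure D3:**
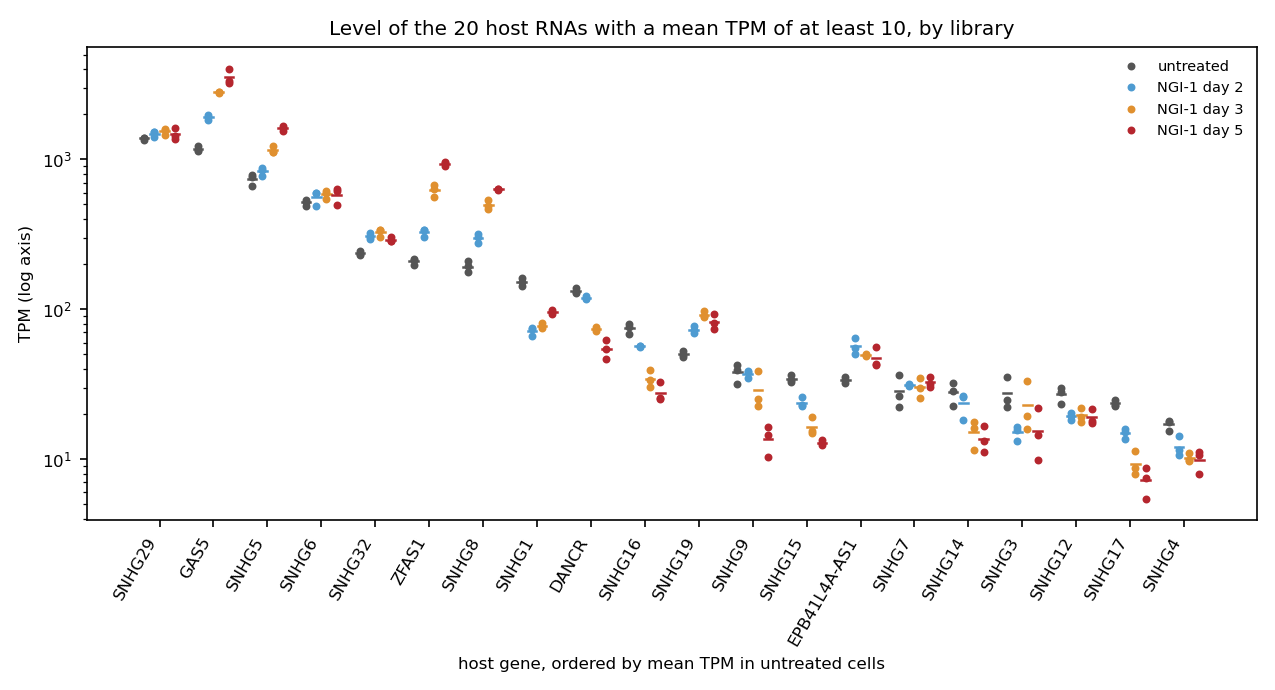
TPM (log axis) of the 20 host RNAs with a mean of at least 10 TPM, ordered by their untreated mean. Each point is 1 library, the short lines are group means over 3 libraries, and colours give the days in NGI-1. GAS5, SNHG5, ZFAS1 and SNHG8 climb with time, SNHG29 and SNHG6 stay level, and DANCR, SNHG16, SNHG15 and SNHG17 step down.

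SNHG1 was called lower on all 3 days on the deposited scale, with its lowest mean on day 2, while rescaling turned the direction on day 5. It hosts 8 box C/D snoRNAs in RefSeq, among them SNORD25 to SNORD31. Its level was 143, 151 and 161 TPM in the untreated libraries, 74.2, 66.6 and 75.4 TPM on day 2, 80.8, 77.3 and 74.6 TPM on day 3 and 98.5, 92.7 and 95.7 TPM on day 5. All treated libraries lay below the untreated ones, and the day 5 libraries lay above those of days 2 and 3. The log2 fold change was -1.06 ± 0.079 on day 2, -0.96 ± 0.079 on day 3 and -0.66 ± 0.079 on day 5 (limma, adjusted p = 2.79e-06 on day 5). Rescaled, day 5 went from lower to a called rise of 0.56 ± 0.10 (limma, adjusted p = 3.01e-04), and left the day 2 fall at -0.83 ± 0.10 (limma, adjusted p = 3.71e-05). SNHG1 and SNHG26 were the 2 members still called lower on day 2 after rescaling.

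DANCR, described as a repressor of differentiation in progenitor cells and host of SNORA26, was called lower from day 3 on. It was measured at 128, 138 and 129 TPM in the untreated libraries, 117, 122 and 119 TPM on day 2, 74.2, 76.2 and 71.6 TPM on day 3 and 46.7, 53.9 and 62.2 TPM on day 5. Day 3 lay below day 2 and day 5 below day 3 with no overlap. The log2 fold change was -0.14 ± 0.094 on day 2, where it was not called, -0.82 ± 0.094 on day 3 and -1.27 ± 0.094 on day 5 (limma, adjusted p = 2.12e-08), whereas after rescaling it was -0.062 ± 0.064 on day 5 and 0.092 and 0.035 on days 2 and 3, none of them called.

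The group means of SNHG16, SNHG15 and SNHG17 also went down with each day. The day 3 and day 5 libraries of SNHG16 and SNHG17 overlapped, and none of these genes was called between those days. SNHG16, which hosts SNORD1A, SNORD1B and SNORD1C, went through 79.97, 76.6 and 68.1 TPM in the untreated libraries, 56.98, 56.9 and 56.3 TPM on day 2, 30.3, 39.5 and 33.7 TPM on day 3 and 25.1, 25.6 and 32.8 TPM on day 5. Its log2 fold change on day 5 was -1.403 ± 0.12 (limma, adjusted p = 8.35e-08). SNHG15, host of SNORA9, was at 32.9, 33.8 and 36.2 TPM in the untreated libraries, 22.5, 22.8 and 25.96 TPM on day 2, 14.9, 19.1 and 15.3 TPM on day 3 and 12.5, 12.7 and 13.4 TPM on day 5. Here the day 5 value was -1.35 ± 0.11 (limma, adjusted p = 5.04e-08). SNHG17, host of the SNORA71 cluster, had 24.98, 22.7 and 22.96 TPM in the untreated libraries, 15.8, 15.2 and 13.7 TPM on day 2, 7.93, 11.3 and 8.69 TPM on day 3 and 5.45, 7.53 and 8.72 TPM on day 5. It showed the deepest fall of all tested members, -1.595 ± 0.16 on day 5 (limma, adjusted p = 3.32e-07). All treated libraries of these genes lay below the untreated ones on every day. The rescaled day 5 values kept the sign but were not called, at -0.20 for SNHG16, -0.18 for SNHG15 and -0.47 for SNHG17. Of these, SNHG16 and SNHG17 passed the adjusted p but not the fold threshold.

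SNHG9, a gene of a single snoRNA (SNORA78), was not called before day 5. Its TPM values were 31.7, 39.4 and 42.7 TPM in the untreated libraries, 37.9, 34.8 and 38.7 TPM on day 2, 25.1, 38.5 and 22.8 TPM on day 3 and 14.6, 16.3 and 10.3 TPM on day 5. Days 2 and 3 overlapped with the untreated libraries, and every day 5 library lay below all others. The step from day 3 to day 5 was -1.002 ± 0.19 (limma, adjusted p = 0.0027), and the log2 fold change on day 5 was -1.41 ± 0.19 against untreated cells (limma, adjusted p = 9.17e-06). Rescaling gave -0.24 ± 0.21, which was not called, and turned the uncalled day 2 and day 3 values positive, at 0.21 and 0.43.

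The other members with a mean of at least 10 TPM were lower or uncertain. SNHG14, the long transcript of the imprinted Prader-Willi region that hosts the SNORD115 and SNORD116 clusters and runs antisense to UBE3A, was at 22.7, 32.4 and 28.6 TPM in the untreated libraries, 25.9, 18.4 and 26.3 TPM on day 2, 11.5, 17.6 and 16.1 TPM on day 3 and 11.1, 13.3 and 16.6 TPM on day 5. Its log2 fold change on day 5 was -0.98 ± 0.19 (limma, adjusted p = 2.86e-04), and the sign turned to 0.18, not called, after rescaling. SNHG4, host of SNORA74A, had 15.4, 17.7 and 17.97 TPM in the untreated libraries, 14.2, 10.7 and 11.4 TPM on day 2, 9.72, 11.01 and 9.91 TPM on day 3 and 7.91, 10.7 and 11.2 TPM on day 5. Its log2 fold change was -0.74 ± 0.14 on day 5 (limma, adjusted p = 2.23e-04) and at 0.40, not called, after rescaling. For SNHG12, which carries snoRNAs of both boxes, the values were 23.5, 27.9 and 29.7 TPM in the untreated libraries, 19.5, 18.2 and 20.2 TPM on day 2, 19.01, 22.1 and 17.8 TPM on day 3 and 17.3, 18.04 and 21.7 TPM on day 5. All its treated libraries lay below the untreated ones, but -0.48 ± 0.12 on day 5 stayed within the fold threshold (limma, adjusted p = 0.002), and rescaling turned it to a called rise of 0.69.

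SNHG3, host of SNORA73A and SNORA73B, was the least reproducible of these. It read 25.001, 35.3 and 22.1 TPM in the untreated libraries, 16.4, 13.3 and 15.8 TPM on day 2, 15.8, 33.4 and 19.5 TPM on day 3 and 9.92, 14.4 and 21.99 TPM on day 5. Day 3 library 2 lay above every library of day 2 and day 5, and the call alternated, with -0.80 ± 0.28 on day 2, -0.29 ± 0.28 on day 3, which was not called, and -0.83 ± 0.28 on day 5 (limma, adjusted p = 0.013). The day 5 call was lost without untreated library 2, at -0.64, and without day 5 library 1, at -0.57, and the day 2 call without any 1 of 5 libraries, with values from -0.85 to -0.61. The rescaled day 5 value of 0.33 ± 0.23 had the opposite sign and was not called. SNHG3 shares exons on its own strand with the protein-coding gene RCC1 in GENCODE release 29. RCC1 had a mean of 99.4 TPM in untreated cells and 13.5 TPM on day 5. How much of the value of SNHG3 comes from RCC1 transcripts was not tested.

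The remaining 8 tested members had mean levels under 10 TPM. SNHG20, SNHG21, SNHG26, SNHG30 and SNHG11 were called lower on day 5, with log2 fold changes between -1.09 for SNHG26 and -0.53 for SNHG11, and none of these was called after rescaling, which turned SNHG20, SNHG30 and SNHG11 to 0.47, 0.38 and 0.34. SNHG22 is described above. SNHG25, a very short gene, ranged from 0 to 4.05 TPM with overlap between groups, and was not called on the deposited scale at 0.55 on day 5, but was at 1.25 after rescaling. SNHG10 read 3.82, 2.08 and 9.06 TPM on day 5, where 1 library stood apart, and its log2 fold change of -0.067 was not called (limma, adjusted p = 0.84), whereas the rescaled 0.91 was called although the groups still overlapped.

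The steps between neighbouring days separate early from late changes. From day 2 to day 3, GAS5, SNHG8 and ZFAS1 rose and DANCR, SNHG14, SNHG15, SNHG16 and SNHG17 fell, which made 3 members called higher and 5 lower beside 3.22% and 55.5% of all features. After rescaling 12 members were higher and 0 lower by limma, with 0 lower at an unadjusted p under 0.05 as well, beside 14.3% and 13.6%. From day 3 to day 5 the only calls among members were the rise of ZFAS1, 0.58 ± 0.078, and the fall of SNHG9, beside 0.67% and 13.1% of all features. The rescaled values gave 5 higher, namely GAS5, SNHG1, SNHG5, SNHG8 and ZFAS1, and 0 lower by limma, with 1 lower at an unadjusted p under 0.05, beside 4.43% and 2.03%. Between day 2 and day 5 there were 4 higher and 7 lower, beside 4.35% and 69.8%, and after rescaling 16 higher and 0 lower by limma, with 1 lower at an unadjusted p under 0.05, beside 19% and 18.1%.

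The snoRNAs themselves were hardly seen in the table. RefSeq places 147 snoRNAs or scaRNAs inside the 32 host genes, of which 126 have a row in the table, but only 5 of these were above 0 in any library. These were SNORA73A and SNORA73B in SNHG3, SNORA71B in SNHG17, SNORA74A in SNHG4 and SCARNA16 in SNHG20. SNORA73B ranged from 0.759 to 4.33 TPM in the untreated libraries and from 4.21 to 31.8 TPM on day 5. The values above are therefore those of the host gene rows and not a measure of the small products. In GENCODE release 29 some snoRNAs lie inside an annotated exon of their host. This held for 1 of 1 in SNHG8, 3 of 3 in SNHG29, 1 of 3 in ZFAS1 and 0 of 2 in SNHG19. For members lower on day 5 it held for 6 of 7 in SNHG1, 1 of 1 in SNHG15, 1 of 1 in SNHG9 and 0 of 1 in DANCR. Such snoRNAs were thus found in members called in each direction. Whether reads of snoRNA sequence were counted to such hosts was not tested. To show what these hosts carry, the snoRNAs of ZFAS1 and SNHG8 and SNORD50B of SNHG5 (higher), and that of DANCR (lower), are printed from their own strand in lower case. SNORD50A, the other snoRNA of SNHG5, is not printed. The C box (TGATGA) and D box (CTGA) of the box C/D snoRNAs, or the ACA near the end of the H/ACA snoRNAs, are in capitals, as found by a letter search. Positions are those of GENCODE release 29 on GRCh38, and the letters come from its transcripts.
SNORD12C in ZFAS1 (chr20:49278940-49279028, plus strand): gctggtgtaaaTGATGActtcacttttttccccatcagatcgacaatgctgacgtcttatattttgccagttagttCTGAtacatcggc
SNORD12B in ZFAS1 (chr20:49280319-49280409, plus strand): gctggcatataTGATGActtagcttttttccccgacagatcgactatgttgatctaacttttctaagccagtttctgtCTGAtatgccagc
SNORD12 in ZFAS1 (chr20:49280683-49280772, plus strand): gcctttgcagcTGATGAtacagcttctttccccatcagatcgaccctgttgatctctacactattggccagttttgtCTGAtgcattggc
SNORA24 in SNHG8 (chr4:118279190-118279320, plus strand): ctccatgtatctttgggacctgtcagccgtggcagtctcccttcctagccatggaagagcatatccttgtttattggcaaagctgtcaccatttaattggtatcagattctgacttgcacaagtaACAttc
SNORD50B in SNHG5 (chr6:85677589-85677658, minus strand): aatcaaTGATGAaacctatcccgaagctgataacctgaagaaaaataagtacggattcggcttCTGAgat
SNORA26 in DANCR (chr4:52713249-52713370, plus strand): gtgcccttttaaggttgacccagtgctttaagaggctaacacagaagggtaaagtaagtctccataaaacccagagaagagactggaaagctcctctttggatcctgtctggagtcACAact
The 3 box C/D snoRNAs of ZFAS1 are 89, 91 and 90 bases long, each with the C box at base 12 and 9 bases after the D box. In SNORA24 and SNORA26 the ACA is followed by 3 bases. Among all tested features 7.73% were higher and 69.8% lower on day 5, with a median log2 fold change of -0.99. Of the 12 tested members that host box C/D snoRNAs only, 3 were higher and 5 lower on day 5, with a median log2 fold change of 0.12. Of the 10 that host H/ACA snoRNAs only, 1 was higher and 7 lower, with a median of -0.78. The 4 scaRNA hosts had 1 higher and 2 lower, and GAS5 and SNHG12 hold both kinds. After rescaling the medians were 1.28 for box C/D hosts and 0.33 for H/ACA hosts, beside -0.019 for all features, and no test compared the classes. The number of RefSeq snoRNAs per host had a median of 1.5 among the higher, the lower and the uncalled members alike. In GENCODE these medians were 1.5, 1.5 and 2.5.

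The sequence at the start of the genes is shown because TOP RNAs begin with a C followed by pyrimidines, and the rising members include RNAs known to carry such a tract. The first 40 transcribed bases and the 30 bases before them were read from RefSeq promoters on GRCh38.p14, on the strand of each gene, so that base 31 of each line is the annotated start. Capitals mark CTTT where all its letters lie within the 10 bases before the start and the 15 bases from the start on. The letters CTTT and the window were chosen after these starts had been seen. The counts by call below therefore describe these starts and cannot support a difference between higher and lower members. Members called higher on day 5 come first, followed by SNHG32, which was not called on the deposited scale, and by DANCR, SNHG1, SNHG16 and SNHG17, which were lower on it.
ZFAS1 (chr20:49278612-49278681, plus strand): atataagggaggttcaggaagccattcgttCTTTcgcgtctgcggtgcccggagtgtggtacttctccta
SNHG8 (chr4:118278732-118278801, plus strand): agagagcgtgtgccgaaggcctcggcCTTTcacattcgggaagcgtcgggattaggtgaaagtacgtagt
GAS5 (chr1:173869006-173869075, minus strand): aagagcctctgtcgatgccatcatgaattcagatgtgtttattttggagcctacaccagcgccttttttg
SNHG5 (chr6:85678694-85678763, minus strand): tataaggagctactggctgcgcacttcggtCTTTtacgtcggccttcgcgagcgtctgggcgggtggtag
SNHG19 (chr16:2155319-2155388, minus strand): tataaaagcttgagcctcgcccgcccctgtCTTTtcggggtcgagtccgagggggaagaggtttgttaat
SNHG22 (chr18:49813993-49814062, plus strand): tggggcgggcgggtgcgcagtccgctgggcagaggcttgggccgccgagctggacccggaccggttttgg
SNHG32 (chr6:31834886-31834955, plus strand): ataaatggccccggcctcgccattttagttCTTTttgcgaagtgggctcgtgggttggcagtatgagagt
DANCR (chr4:52712364-52712433, plus strand): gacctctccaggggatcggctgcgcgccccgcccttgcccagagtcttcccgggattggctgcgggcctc
SNHG1 (chr11:62855846-62855915, minus strand): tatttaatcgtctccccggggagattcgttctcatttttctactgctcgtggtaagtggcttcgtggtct
SNHG16 (chr17:76557734-76557803, plus strand): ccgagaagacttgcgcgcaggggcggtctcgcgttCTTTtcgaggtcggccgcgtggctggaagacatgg
SNHG17 (chr20:38435289-38435358, minus strand): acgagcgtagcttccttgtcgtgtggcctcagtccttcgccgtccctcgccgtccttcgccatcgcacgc
In ZFAS1, SNHG5 and SNHG19, and also in the uncalled SNHG32, the CTTT began at the first transcribed base. A start was given for 28 of the 32 members, all but SNHG6, SNHG9, SNHG15 and SNHG25, and 9 of them (32.1%) held CTTT in the window on their own strand, beside 10.4% of all 27305 promoters. On the opposite strand (AAAG) it was 1 member, beside 8.32% of promoters. Among members called higher on day 5 it was 4 of 6, among those lower 2 of the 12 with a promoter (SNHG16 and SNHG4), and among those not called 3 of 6 (SNHG12, SNHG29 and SNHG32). Split by the rescaled calls it was 7 of 13 higher members and 2 of the other 11. For comparison, CTTT stood there in 41 of 63 ribosomal protein genes, 11 of 13 further TOP genes of translation and 0 of 10 other long noncoding RNAs. GAS5, SNHG22, DANCR, SNHG1 and SNHG17 held no CTTT in this window of their annotated start. SNHG1 nevertheless starts with the letters ctc, a C followed by pyrimidines. Annotated starts differ between catalogues, and the upstream end of GAS5, on the minus strand of chromosome 1, lies at base 173868882 in GENCODE and at base 173869045 in RefSeq. A match of letters is a description of the annotated sequence.

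Genes of translation, with which the TOP host RNAs share their start, also split in both directions on the deposited scale. Of 79 ribosomal protein genes, 27 were higher and 22 lower on day 5 in the deposited values, and their median log2 fold change was 0.016, beside 7.73% of all tested features higher and 69.8% lower. RPL39 had the largest rise, 2.27 (4252 TPM untreated, 20577 on day 5), and the deepest fall was that of RPS15, at -1.27. After rescaling 65 were higher and 0 lower, with a median of 1.24, beside 27.5% of all features higher and 26.9% lower. On the deposited scale 7 of the 28 ribosomal protein genes that themselves host snoRNAs were higher and 9 lower. Among those without an annotated snoRNA 20 of 51 were higher and 13 lower. A further 19 TOP genes of translation gave 3 higher and 12 lower, from 1.34 for EIF3E, a subunit of initiation factor eIF3, to -2.65 for HNRNPA1, an RNA-binding protein. The proteins that bind TOP tracts, LARP1, TIA1 and TIAL1, were all lower, LARP1 the most at -2.17 (99.7 TPM untreated, 22.5 on day 5), but rescaling turned TIA1 to an uncalled 0.29. After rescaling the 19 TOP genes gave 10 higher and 3 lower.

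Protein-coding snoRNA hosts were mostly lower. Of 30 such hosts in a list of well-known ones, 28 were lower on day 5 on the deposited scale, with a median of -2.07, beside 69.8% of all tested features lower. The deepest fall was that of TCP1, a subunit of the cytosolic chaperonin, at -2.98, and the value nearest to 0 was that of GNL3, nucleostemin, at -0.11 and not called, which rescaling turned to a called 1.11. Of 190 protein-coding hosts taken from the annotation, other than ribosomal protein genes, 6 were higher and 153 lower, and 28 of the 30 are among these 190. After rescaling 21 of the 30 and 81 of the 190 were still lower, beside 26.9% of all features. The count was 0 for the 28 noncoding hosts, as given above, and also 0 for the 79 ribosomal protein genes. Among other long noncoding RNAs, 11 of 13 listed were tested and gave 3 higher and 4 lower, with a median of -0.15. They ranged from 2.52 for MALAT1, a nuclear speckle RNA, to -1.34 for TUG1. Rescaling gave 6 higher and 0 lower, and left TUG1 uncalled at -0.20.

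The machinery around host RNAs was mostly lower. Of 18 proteins of the snoRNP particles and their assembly, 17 were lower on day 5 and 1 higher, with a median of -1.87, beside 69.8% of all tested features lower and 7.73% higher. NOLC1, a nucleolar chaperone of snoRNPs, fell most at -3.06, and DKC1, the pseudouridine synthase of H/ACA particles, stood at -2.70. ZNHIT3, an assembly factor of box C/D particles, was the one that rose, at 0.999. Of 17 factors of nonsense-mediated decay and the exon junction complex, 16 were lower, from -2.68 for EIF4A3, the core helicase of the junction, to an uncalled -0.38 for UPF3A. UPF1, the central helicase of this decay, was at -2.22, from 29.3 TPM in untreated cells to 5.64 TPM on day 5. All 7 factors of intron debranching and RNA trimming were lower, EXOSC10 of the nuclear exosome the most at -2.24 and DIS3 the least at -0.9996. After rescaling 12 of the 18 snoRNP proteins, 8 of the 17 decay and junction factors and 4 of the 7 trimming factors were still lower, while 2 snoRNP proteins and 2 decay and junction factors were higher, beside 26.9% of all features lower and 27.5% higher. Whether any of these levels bears on the host RNAs was not tested.

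Some values carry limits of annotation. In GENCODE release 29, where 31 of the 32 members were matched, 7 members share exon bases with another gene on the same strand, namely SNHG3, SNHG4, SNHG14, SNHG20, SNHG21, SNHG28 and SNHG32, and 16 overlap exons of a gene on the opposite strand, ZFAS1, GAS5 and DANCR among them. Whether strand was used in quantification is not given in the sources used here, so such values may hold reads of both genes. SNHG29, SNHG30 and SNHG32 are listed there under the older names LRRC75A-AS1, LINC02001 and C6orf48. That release classes SNHG32 as a protein-coding gene. Annotated transcript lengths overlapped between the groups. The median annotated transcript was 662 bases in members called higher on day 5, 835 bases in those lower and 766 bases in those not called, with ranges of 342 to 688, 373 to 2201 and 192 to 1473 bases.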

How the data were processed

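The authors deposited 1 table of log2(TPM + 1) values for 59276 features, listed by gene symbol. The submitters' processing notes name FastQC, Trimmomatic, STAR, Salmon and hg38, and versions and annotation are not given in the sources used here. TPM was recovered by undoing the log2, and libraries summed to the same total but for rounding. Depth is not kept in TPM, so precision rests on 3 libraries per group. Features reaching 1 TPM in 3 or more libraries were fitted with limma 3.58.1 in R 4.3.3, with 1 mean per group and a mean-variance trend, and two-sided p-values were adjusted by Benjamini-Hochberg within each contrast. The procedure was tested on simulated data. Alternatives were rescaling, leaving out the 20 most abundant features, other filters, a pseudocount of 0.1, pairwise fits, no trend, a fold threshold of 1 and leaving out each library. The members, gene lists and tests were chosen with earlier results of these data known. Members with a mean of at least 10 TPM were named in every library, and from each list the largest rise and fall on day 5, beside a few genes needed to say what a list is. Sequences and neighbouring genes came from RefSeq (GRCh38.p14) and GENCODE release 29 (GRCh38). Samples were grouped by the labelled time point. Figures were drawn with matplotlib 3.10.9.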

Additional observations from a re-analysis of the deposited data

Results flagged for a closer look

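For 11 host genes the level on day 5 of NGI-1 differed from that on day 2, as tested by the day 5 against day 2 contrast in limma, which holds no untreated library. Time in culture and time in NGI-1 cannot be told apart in this contrast. Of these, 4 were higher and 7 lower on day 5, beside 4.35% and 69.8% of all tested features. On the deposited scale the day 5 value exceeded that of day 2 by 1.51 on the log2 scale for ZFAS1, 1.07 for SNHG8, 0.96 for SNHG5 and 0.88 for GAS5, and after rescaling these differences were 2.50, 2.06, 1.95 and 1.87 and were still called. Lower on day 5 than on day 2 were SNHG9 at -1.39, DANCR at -1.13, SNHG16 at -1.01, SNHG17 at -0.97, SNHG15 at -0.83, SNHG14 at -0.74 and SNHG21, a low host RNA, at -0.67. None of these 7 was called after rescaling, where they lay between -0.45 for SNHG9 and 0.20 for SNHG14.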

How the results depend on the processing

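Each result was recomputed under 8 other settings and without each library. SNHG9 on day 2, uncalled, was also positive at 0.073 without the 20 most abundant features. Rescaling turned the sign of DANCR to 0.092 on day 2 and 0.035 on day 3, SNHG1 to 0.56 on day 5, SNHG12 to 0.39 on day 3 and 0.69 on day 5, SNHG14 to 0.18 on day 5, SNHG3 to 0.54 on day 3 and 0.33 on day 5, SNHG4 to 0.12 on day 3 and 0.40 on day 5, and SNHG9 to 0.21 on day 2 and 0.43 on day 3. Rescaled calls against untreated cells were 2 lower on day 2, 11 higher and 0 lower on day 3, and 15 higher and 0 lower on day 5. From day 2 to day 3 they were 12 higher and 0 lower, and from day 3 to day 5 they were 5 higher and 0 lower. From day 2 to day 5, a comparison added after the data were seen, they were 16 higher and 0 lower, against 4 and 7 on the deposited scale. The count higher on day 2 was 7, against 6. Leaving out the 20 most abundant features gave 3 lower on day 2, 8 lower on day 5, 3 lower from day 2 to day 3 and 2 higher from day 3 to day 5. A fold threshold of 1 gave 0 higher and 1 lower on day 2, 3 higher and 3 lower on day 3, 7 lower on day 5, 0 higher and 0 lower from day 2 to day 3, 0 higher from day 3 to day 5, and 2 higher and 3 lower from day 2 to day 5. The cause of these shifts beyond the change of scale was not tested. Shares of all features are given for the deposited and rescaled values only. The counts under the other settings, and those below with a library left out, have no such share beside them. Summed TPM of the host RNAs was 3437, 4954, 9817 and 14951 after rescaling and 6605, 8639, 12292 and 15261 without the 20 most abundant features, for untreated cells and days 2, 3 and 5.

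Leaving out 1 library gave 5 to 6 higher and 3 to 6 lower on day 2, 7 to 8 higher and 9 to 12 lower on day 3, and 5 to 7 higher and 11 to 15 lower on day 5. It gave 3 to 4 higher and 4 to 7 lower from day 2 to day 3, 1 to 2 higher and 1 to 3 lower from day 3 to day 5, and 4 to 5 higher and 7 to 8 lower from day 2 to day 5. The count of 3 lower on day 2 came without day 2 library 2, and from day 3 to day 5 the 2 higher came without day 3 library 1 or day 5 library 3 and the 3 lower without day 5 library 3. The day 2 call of SNHG15 was lost without untreated library 3 (-0.48), day 2 library 1 (-0.48) or day 2 library 2 (-0.49), and that of SNHG19 without day 2 library 1 (0.49). Calls were gained on day 5 by EPB41L4A-AS1 without day 5 library 1 or 3 (0.53 each) and by SNHG12 without untreated library 1 or day 5 library 3 (-0.58 each), on day 3 by SNHG12 without untreated library 1 (-0.53) or day 3 library 2 (-0.52), SNHG32 without day 3 library 3 (0.52) and SNHG9 without untreated library 1 (-0.53) or day 3 library 2 (-0.63), and on day 2 by SNHG12 without untreated library 1 (-0.55) and SNHG4 without untreated library 1 (-0.53) or day 2 library 1 (-0.58). The value of SNHG7 on day 3 ranged from -0.049 to 0.29 and that of SNHG9 on day 2 from -0.14 to 0.069. The summed TPM ranged from 5090.4 to 5249.6 in untreated cells, 6202 to 6478 on day 2, 7979 to 8119.7 on day 3 and 9105 to 9728 on day 5. No paired analysis was possible because the labels give no replicate number that links libraries of different days. Counting error is unknown in TPM, so low members such as SNHG10 and SNHG25 rest on the spread of 3 libraries alone.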
